A study of Caenorhabditis elegans with 9 samples.

Results

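The lysozyme genes lys-1, lys-2, lys-3, lys-4, lys-5, lys-6, lys-7, lys-8 and lys-10 were followed in starved first-stage larvae (L1) of Caenorhabditis elegans. They were taken as every probe set whose gene symbol in the platform's annotation is one of these 9 names, which gave 9 probe sets, 1 for each gene, of 22548 tested (17118 genes with a probe set of their own). A further probe set is annotated to lys-5 and lys-6 together. It is kept apart from the 9, and it was singled out after its values were seen. RNA of whole larvae was measured on Affymetrix arrays, 1 array per culture, in 3 strains with 3 arrays each. The strains were oga-1(ok1207), which has lost the O-GlcNAcase OGA-1, ogt-1(ok430), which has lost the O-GlcNAc transferase OGT-1, and wild type. All cultures, wild type included, were hatched from bleached embryos in sterile buffer and collected 48 h later, so no strain was measured with food. Each mutant strain carries a single deletion allele, and no rescued line is named.

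Lysozymes cut the peptidoglycan of bacterial cell walls. The lys genes of C. elegans encode lysozymes related to those of amoebae, many of which are made in the intestine, where they serve both the digestion of bacterial food and the defence against ingested bacteria. OGT-1 places the sugar O-GlcNAc on proteins of the nucleus and cytosol, and OGA-1 takes it off again. On the current C. elegans assembly (WBcel235) lys-1, lys-2 and lys-3 lie side by side on chromosome V, and lys-4, lys-5 and lys-6 lie side by side on chromosome IV. The genes lys-7 (chromosome V), lys-8 (chromosome II) and lys-10 (chromosome IV) have no other lys gene as a direct neighbour.

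The deposited values are on a log2 scale, with the same mean of 7.36 on each of the 9 arrays and medians from 6.80 to 6.87. Yeast genes are absent from the larvae, and their 5 control probe sets had strain means from 4.41 to 6.26, and a probe set with a strain mean at or below 6.26 is not shown to be above background in that strain. On the second principal component (24.1% of the variance), oga-1 replicate 2 stood apart at -36.7. Alone of the 9, oga-1 replicate 3 had a lower mean correlation with its own strain (0.9894) than with the other strains (0.9906). The dimmer of 2 ogt-1 probe sets read 10.62 ± 0.08 in oga-1, 10.41 ± 0.08 in ogt-1 and 11.02 ± 0.19 in wild type (SD, n = 3 each), and it passed between ogt-1 and wild type (adjusted p = 0.0124). That call was lost when ogt-1 replicate 2 (adjusted p = 0.0622) or 3 (adjusted p = 0.0710) was dropped. The brighter one did not pass in either mutant (adjusted p = 0.240 in oga-1 and 0.581 in ogt-1), but passed in oga-1 with replicate number as a block on oga-1 and wild type alone (adjusted p = 0.0441). None of the 3 oga-1 probe sets passed between oga-1 and wild type (adjusted p from 0.953 to 0.986), and the sources used here do not say whether these probes fall in the deletions, so the strains are named by their labels.

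In both mutants lys-2 was higher and lys-4 was lower than in wild type, and the other 7 lysozyme probe sets did not pass in either mutant. These are 2 of 9 in oga-1, where 1.93% of all tested probe sets passed, and 2 of 9 in ogt-1, where 3.91% passed. Between the mutants lys-3 alone of the 9 passed, higher in oga-1 than in ogt-1, where 0.514% of all passed. As the members were chosen with earlier results of these data known, these shares do not test the family. Calls were made with limma at a Benjamini-Hochberg adjusted p under 0.05 over all 22548 probe sets of a comparison. The genes lys-5, lys-6 and lys-10 had all 3 strain means at or below the background level of 6.26, so for them and for the probe set of lys-5 and lys-6 no fold is given. The plot of all values by array shows the 10 probe sets side by side.

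**Figure D1:**
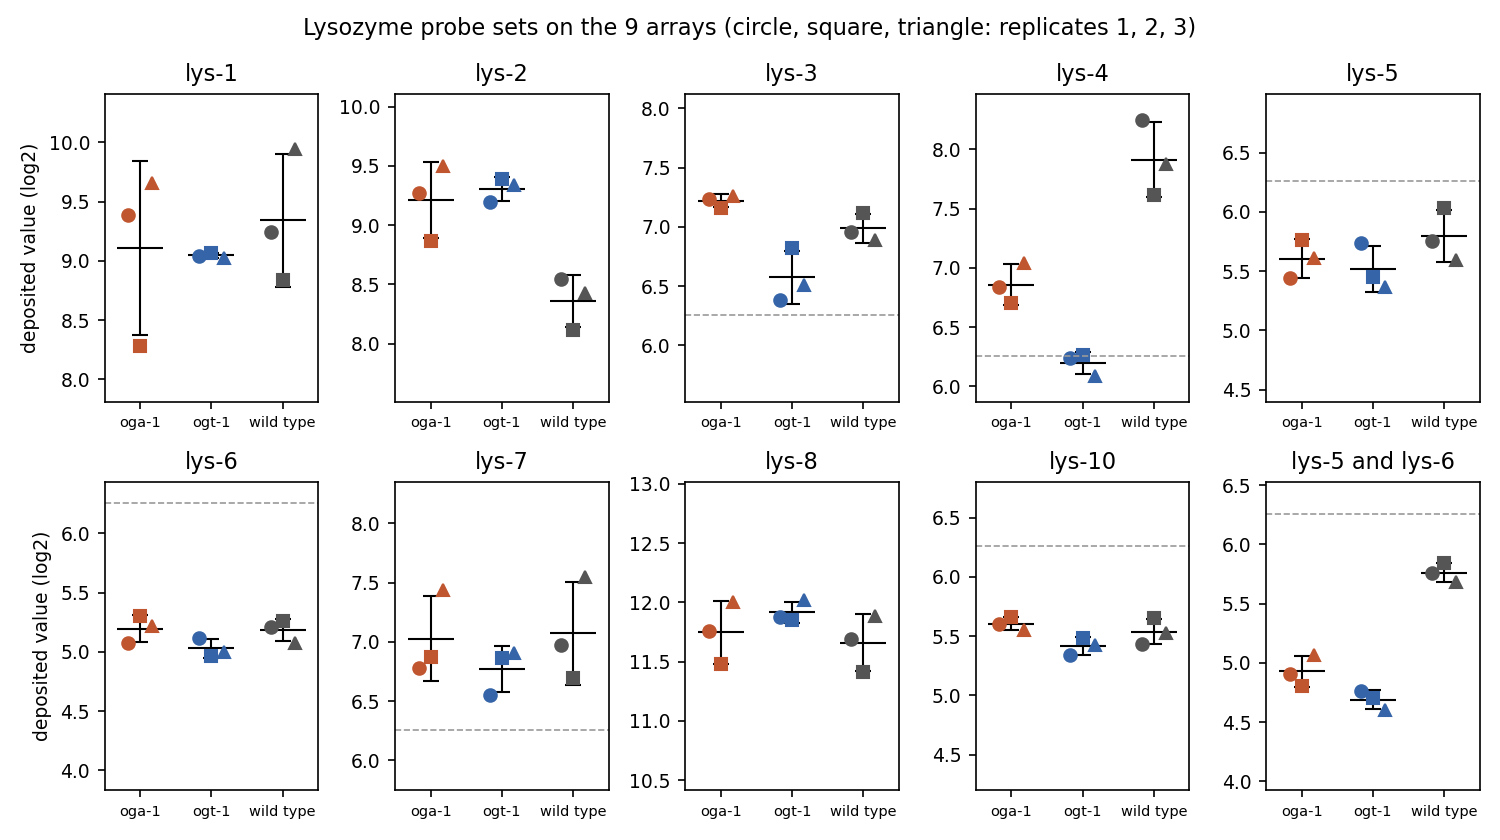
Deposited log2 value (vertical axis, a window of the same height in every panel) of each lysozyme probe set on the 9 arrays, by strain; circles, squares and triangles are replicates 1, 2 and 3, horizontal bars with whiskers are the strain mean ± SD (n = 3), and the dashed line is the background level of 6.26. The last panel is the probe set annotated to lys-5 and lys-6 together; lys-4 and lys-2 separate both mutants from wild type, and the 3 ogt-1 values of lys-4 lie from 6.09 to 6.27, at the dashed line.

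The lysozyme gene lys-4, the first of the trio on chromosome IV, had the largest differences among the 9 probe sets in both comparisons with wild type. It read 6.84, 6.70 and 7.04 on the oga-1 arrays, 6.24, 6.27 and 6.09 on the ogt-1 arrays, and 8.25, 7.62 and 7.88 on the wild type arrays. The 3 strains did not overlap: every ogt-1 array lay below every oga-1 array, and every oga-1 array lay below every wild type array. Against wild type, lys-4 fell by 1.71 on the log2 scale in ogt-1 (SE 0.15, adjusted p = 6.91e-05). With the ogt-1 mean of 6.20 below the background level, this is a fold between array values of at least 3.28, which holds if background adds to the signal.

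In oga-1 the fall of lys-4 against wild type was 2.08-fold (log2 difference -1.05 ± 0.15, SE, adjusted p = 0.00792), and 41 of all tested probe sets had a more negative difference. Neither call was lost under any of the alternatives at the same threshold, with adjusted p up to 0.000853 for ogt-1 and up to 0.0403 for oga-1. Between oga-1 and ogt-1 the difference of lys-4 in array values was 0.66 (95% interval 0.32 to 0.996), which did not pass over all probe sets (adjusted p = 0.145). With the ogt-1 mean below the background level it is likewise a lower bound. That comparison passed by a narrow margin when wild type replicate 1 was left out (adjusted p = 0.0494) or when the mutants were fitted alone (adjusted p = 0.0498). The order of the strains in lys-4 level was thus ogt-1, oga-1, wild type from low to high, with the step between ogt-1 and oga-1 not passing.

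The probe set annotated to both lys-5 and lys-6, the next genes along from lys-4, read 4.91, 4.81 and 5.06 on the oga-1 arrays, 4.76, 4.70 and 4.61 on the ogt-1 arrays, and 5.75, 5.85 and 5.69 on the wild type arrays. All 9 values lay below the background level, yet the 3 wild type values lay above all 6 mutant values. The log2 difference from wild type was -0.83 ± 0.10 (SE) in oga-1 (adjusted p = 0.00252) and -1.07 ± 0.10 in ogt-1 (adjusted p = 0.000153). The probe sets annotated to lys-5 alone and to lys-6 alone did not pass in either mutant. For lys-5 the difference was -0.19 in oga-1 (95% interval -0.50 to 0.12) and -0.28 in ogt-1 (-0.59 to 0.04), and for lys-6 it was 0.01 in oga-1 (-0.21 to 0.24) and -0.15 in ogt-1 (-0.38 to 0.07). Probe sets of the class of the shared one (s_at) can bind related transcripts, and which transcript it read in these larvae was not tested. The probe sets of lys-2, lys-3, lys-4, lys-6 and lys-7 are of the same class. Whether they read only the gene they are annotated to was not tested either.

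The gene lys-2, the middle of the trio on chromosome V, went the other way. Its values were 9.27, 8.87 and 9.50 on the oga-1 arrays, 9.19, 9.38 and 9.34 on the ogt-1 arrays, and 8.54, 8.12 and 8.43 on the wild type arrays. All 6 mutant arrays lay above all 3 wild type arrays, and the mutants overlapped each other. The gene was 1.92-fold higher in ogt-1 than in wild type (log2 difference 0.94 ± 0.16, SE, adjusted p = 0.00728), and 114 of all tested probe sets had a more positive difference. In oga-1 it was 1.80-fold higher (0.85 ± 0.16, adjusted p = 0.0228), and 138 had a more positive difference. The ogt-1 call held under every alternative at the same threshold (adjusted p up to 0.0453). The oga-1 call was lost without oga-1 replicate 1 (adjusted p = 0.101), without wild type replicate 2 (adjusted p = 0.0764) and when oga-1 and wild type were fitted alone (adjusted p = 0.0710). Between the mutants the difference of lys-2 was -0.09 (95% interval -0.45 to 0.26).

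The neighbours of lys-2 on chromosome V did not pass against wild type in either mutant. The gene lys-3 read 7.23, 7.16 and 7.26 on the oga-1 arrays, 6.39, 6.82 and 6.51 on the ogt-1 arrays, and 6.95, 7.12 and 6.88 on the wild type arrays. Its wild type values lay between those of the mutants, above all ogt-1 values and below all oga-1 values. The mutants differed 1.57-fold in array values, higher in oga-1 (log2 difference 0.65 ± 0.12, SE, adjusted p = 0.0469), and 157 of all tested probe sets were further above ogt-1. The ogt-1 mean of lys-3, 6.57, lay close above the background level of 6.26. Neither mutant passed against wild type, with differences of 0.23 in oga-1 (95% interval -0.04 to 0.50, adjusted p = 0.460) and -0.41 in ogt-1 (-0.69 to -0.14, adjusted p = 0.0969).

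The lys-3 call between the mutants stood close to the threshold. It was lost on quantile-normalised values (adjusted p = 0.0584), on values centred on array medians (0.0525), with the mutants fitted alone (0.0792), and without any array other than ogt-1 replicate 2. Those arrays are oga-1 replicates 1, 2 and 3 (adjusted p = 0.223, 0.103 and 0.0853), ogt-1 replicates 1 and 3 (0.206 and 0.266), and wild type replicates 1, 2 and 3 (0.0736, 0.0561 and 0.0564). Its log2 difference stayed between 0.55 and 0.77 in all of these fits. The plot of adjusted p over the alternatives sets this spread beside those of lys-4 and lys-2.

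**Figure D2:**
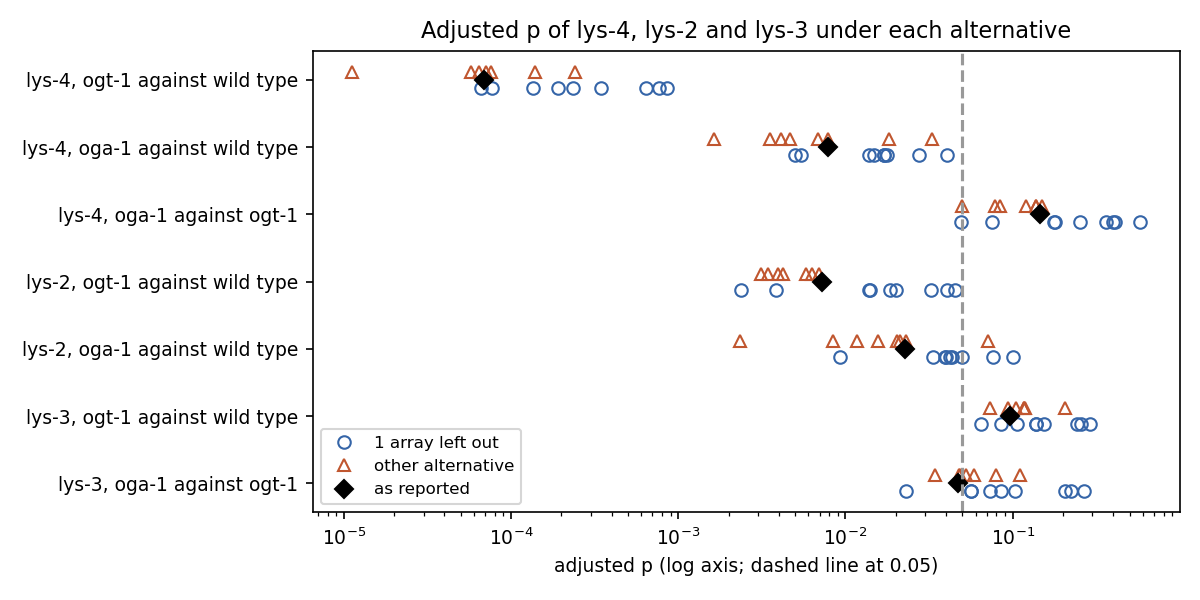
Adjusted p (log axis) of lys-4, lys-2 and lys-3 in the comparisons named on the vertical axis, as reported (black diamonds), with 1 array left out (blue circles) and under the other alternatives at the same threshold (orange triangles); the dashed line is 0.05. The lys-4 and lys-2 points for ogt-1 against wild type lie left of the line throughout, up to 0.000853 and 0.0453, while those of lys-3 for oga-1 against ogt-1 lie on both sides of it.

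The gene lys-1, the other neighbour of lys-2 and a gene known to be induced by Serratia infection in fed animals, varied more between replicates than between strains. It read 9.39, 8.28 and 9.66 on the oga-1 arrays, 9.04, 9.07 and 9.03 on the ogt-1 arrays, and 9.25, 8.83 and 9.94 on the wild type arrays. The 3 ogt-1 values lay close together, inside the range of both other strains. The difference from wild type was -0.23 in oga-1 (95% interval -0.94 to 0.47) and -0.30 in ogt-1 (-1.003 to 0.41). The spread of lys-1 within strains, 0.53 (residual SD, log2), was at or above that of 99.3% of the tested probe sets, whose median was 0.153.

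The gene lys-7, known in C. elegans as a target activated by the FOXO transcription factor DAF-16, also spread widely within strains (residual SD 0.34, at or above 96.3% of the tested probe sets). It read 6.78, 6.87 and 7.44 on the oga-1 arrays, 6.55, 6.86 and 6.90 on the ogt-1 arrays, and 6.97, 6.70 and 7.55 on the wild type arrays, with overlap in every comparison. The difference from wild type was -0.05 in oga-1 (95% interval -0.52 to 0.43) and -0.30 in ogt-1 (-0.78 to 0.18). The gene lys-8, known to depend on the TGF-beta ligand DBL-1, read 11.75, 11.48 and 12.005 on the oga-1 arrays, 11.88, 11.85 and 12.02 on the ogt-1 arrays, and 11.69, 11.41 and 11.88 on the wild type arrays. These strains overlapped as well, with a difference from wild type of 0.09 in oga-1 (-0.24 to 0.41) and 0.26 in ogt-1 (-0.07 to 0.59).

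The remaining probe sets had little signal. The values of lys-5 ranged from 5.37 to 6.03 over the 9 arrays, those of lys-6 from 4.97 to 5.30 and those of lys-10 from 5.34 to 5.66, none of them above 6.26. The differences of lys-10 were 0.07 in oga-1 against wild type, -0.12 in ogt-1 against wild type and 0.19 in oga-1 against ogt-1 (adjusted p from 0.638 upward). Its oga-1 values, 5.61, 5.66 and 5.56, did not overlap its ogt-1 values, 5.34, 5.49 and 5.42. None of these genes was shown to be above background, so no change in transcript level is read from them, and the intervals apply to the array values only.

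**Figure D3:**
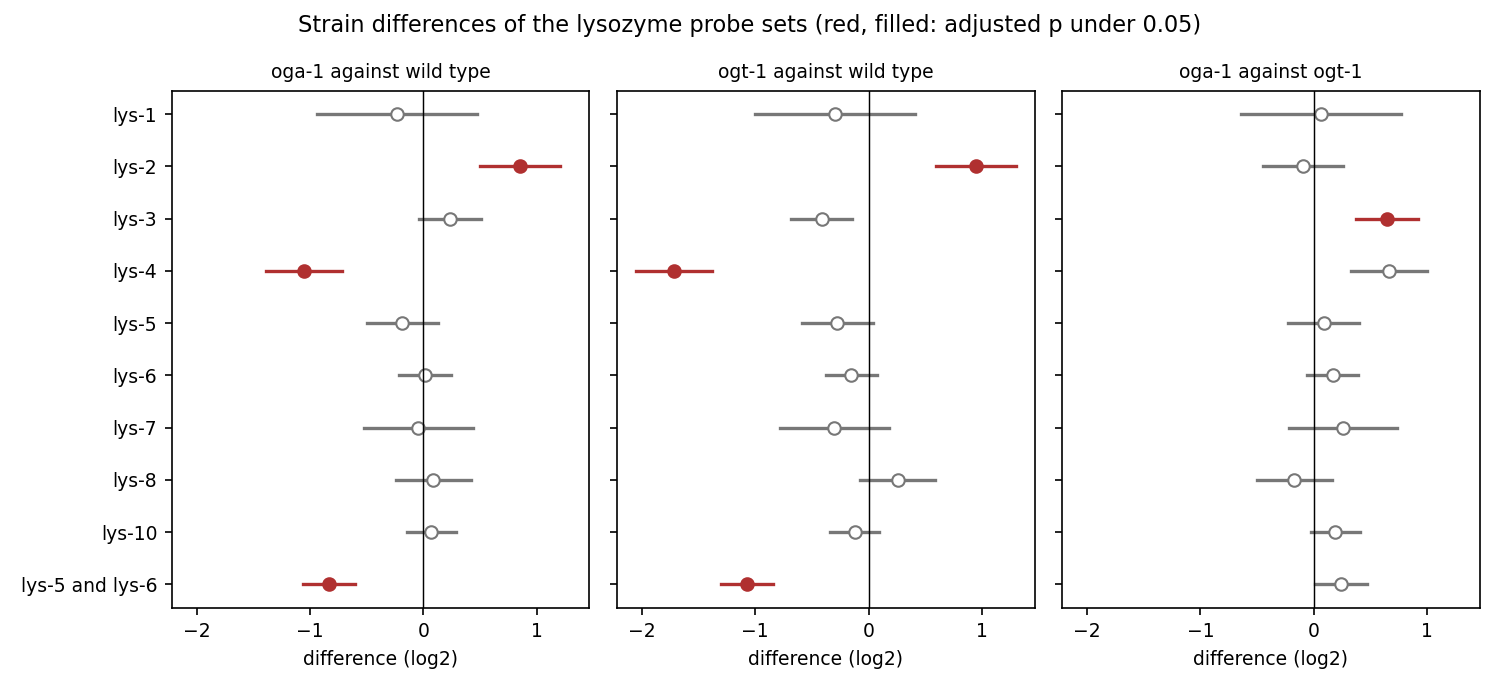
Log2 difference between strains (points) with its 95% interval (bars) for each lysozyme probe set, in 3 panels, oga-1 with wild type, ogt-1 with wild type and the mutants with each other; red filled points passed at an adjusted p under 0.05. The filled points are lys-2, lys-4 and the probe set of lys-5 and lys-6 in both mutants against wild type, and lys-3 between the mutants (0.65).

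Over all tested probe sets, 436 passed in oga-1 against wild type, 882 in ogt-1 against wild type and 116 in oga-1 against ogt-1. In each comparison 3 of the 9 had arrays that did not overlap between the strains (lys-2, lys-3 and lys-4 in each mutant with wild type, and lys-3, lys-4 and lys-10 between the mutants), against 22.5% of all probe sets for ogt-1 with wild type, 16.5% for oga-1 with wild type and 9.87% between the mutants. The median log2 difference of the 9 was -0.28 in ogt-1 against wild type, 0.01 in oga-1 against wild type and 0.17 in oga-1 against ogt-1, where the medians of all probe sets were 0.01, 0.01 and 0.00. These medians of the 9 are the array values of lys-5 (ogt-1 against wild type) and lys-6 (the other comparisons), which were not shown to be above background, so nothing is read from them. The comparisons with wild type share the same 3 wild type arrays, and every comparison shares its arrays with the other two. With replicate number as a block (same-numbered oga-1 and wild type arrays deviated together), 749 of all probe sets passed between oga-1 and wild type, and again 2 of the 9, lys-2 (adjusted p = 0.0117) and lys-4 (adjusted p = 0.00466). The block on oga-1 and wild type alone, added after seeing the data, gave adjusted p = 0.00234 for lys-2 and 0.00164 for lys-4.

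The lysozyme genes with signal mostly shared their low or high arrays in oga-1, and their lowest array in wild type. In ogt-1 they were split. Of the 6 genes with signal above background in at least 1 strain (lys-1, lys-2, lys-3, lys-4, lys-7 and lys-8), 5 had their lowest oga-1 value on replicate 2 and all 6 had their highest on replicate 3. In ogt-1 replicates 1, 2 and 3 were lowest for 3, 1 and 2 of the 6 and highest for 0, 4 and 2. In wild type 5 of the 6 were lowest on replicate 2 (all but lys-3), and replicates 1, 2 and 3 were highest for 2, 1 and 3. The dim genes lys-5, lys-6 and lys-10 went the other way. They were highest on replicate 2 in oga-1 (5.77, 5.30 and 5.66) and in wild type (6.03, 5.26 and 5.65). Over all values these arrays had the smallest SD (1.91 and 1.96), against 2.00 to 2.05 on the others. Whether the sharing is particular to the lysozymes was not tested. The largest departures from a strain mean were those of lys-1, which reached -0.83 on oga-1 replicate 2, 0.55 on oga-1 replicate 3, -0.51 on wild type replicate 2 and 0.60 on wild type replicate 3. With replicate 2 of oga-1 and of wild type left out together, a choice made after seeing the data, lys-2 and lys-4 still passed in both mutants and lys-3 did not pass between them (adjusted p = 0.111).

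**Figure D4:**
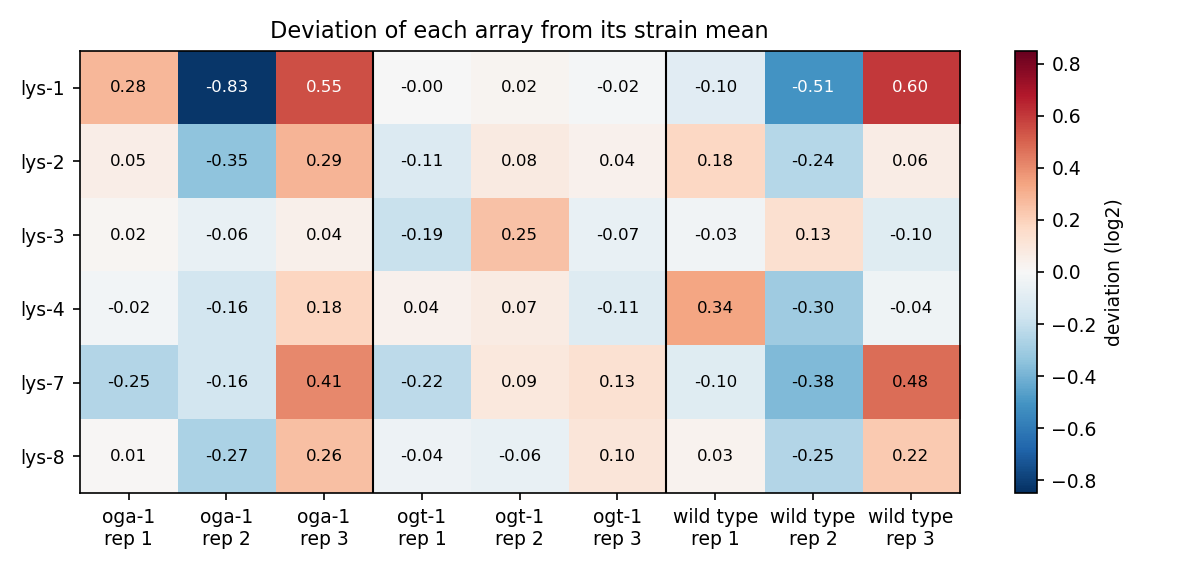
Deviation of each array from its strain mean (colour and printed number, log2) for the 6 lysozyme genes with signal above background in at least 1 strain (rows), on the 9 arrays (columns, grouped by strain). Replicate 2 of oga-1 and of wild type is below its strain mean for most genes, down to -0.83 for lys-1, and the ogt-1 arrays of lys-1 differ least.

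Genes with the most similar pattern were sought for the 3 genes that passed, among 2101 probe sets of other genes with an SD of at least 0.3 over the 9 arrays, as a description. For lys-4 the highest Pearson correlations over the 9 arrays were those of Y8A9A.2 (0.986), B0001.2 (0.981) and hmg-20 (0.967), and for lys-2 those of pdi-2 (0.977), which encodes a protein disulphide isomerase, nspg-10 (0.974) and the C-type lectin gene clec-76 (0.974). Correlations above 0.9 were common for these patterns, with 83 such probe sets for lys-4 and 52 for lys-2. For lys-3 there was 1, Y75B12B.3 (0.916), followed by ttr-51 (0.869) and ZK896.5 (0.843). Arrays of a strain share their strain mean, which alone gives high correlations to genes that differ between strains.

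The second lysozyme family of the worm, the invertebrate-type ilys genes, had 6 measured genes, of which none passed in any comparison with limma (1, 3 and 1 had an unadjusted p under 0.05 in oga-1 against wild type, ogt-1 against wild type and oga-1 against ogt-1). The median difference of the 6 was -0.15 in oga-1 and -0.19 in ogt-1 against wild type, and 4 of the 6 had a mean at or below 6.26. The largest difference in this family was that of ilys-5, read by 3 probe sets, chosen for mention after its values were seen. The brightest of them read 6.82, 7.07 and 7.90 on the oga-1 arrays, 6.47, 6.20 and 6.15 on the ogt-1 arrays, and 7.22 to 8.90 on the wild type arrays. All ogt-1 values lay below all values of the other strains, while replicate 3 stood high in both oga-1 and wild type. The difference between ogt-1 and wild type was -1.53 ± 0.39 (SE), just short of the threshold (adjusted p = 0.0507), and over the alternatives the adjusted p ran from 0.0131 with replicate number as a block to 0.175. Without wild type replicate 3 the difference was -0.99. In oga-1 against wild type the other ilys-5 probe sets passed with that block on these 2 strains alone (adjusted p = 0.0206 and 0.0325), but not with the block on all 3 strains (adjusted p = 0.225 and 0.264), and the brightest passed with neither (adjusted p = 0.0571 and 0.413).

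The level of intestinal RNA, in which many lysozymes are made, was read from 25 measured intestine markers, all with a mean over the arrays above 6.26. Their summed array value on the linear scale was 61916 to 66875 in oga-1, 61045 to 66203 in ogt-1 and 64987 to 66121 in wild type, so the strains overlapped. The median log2 difference of the list was -0.03 in each mutant against wild type. Of the 25, the metallothionein gene mtl-2, read by its brightest probe set only, was higher in both mutants, 2.31-fold in oga-1 (adjusted p = 0.00185) and 3.06-fold in ogt-1 (adjusted p = 6.73e-05). The fatty acid desaturase gene fat-6 was lower in ogt-1 (-0.48, adjusted p = 0.0186), a call lost when any ogt-1 array or wild type replicate 2 or 3 was dropped (adjusted p up to 0.0893). Between the mutants cpr-1 passed by a narrow margin, 2.21-fold higher in oga-1 (adjusted p = 0.0429). No other marker passed in any comparison. Of all tested probe sets, 1.93% passed in oga-1 and 3.91% in ogt-1 against wild type, and 0.514% between the mutants. In whole larvae, fewer cells of a type and less RNA per cell cannot be told apart.

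Markers of the pharynx, which lies next to the intestine and also holds gland and muscle cells, lay mostly below their wild type levels in the mutants, although few passed. Of 18 measured, 14 in oga-1 and 17 in ogt-1 were below wild type, with median differences of -0.22 and -0.25 where all probe sets had medians of 0.01. Their summed linear array value was 28951 to 33452 in oga-1, 29064 to 32641 in ogt-1 and 35764 to 41565 in wild type, with no overlap of either mutant with wild type. This sum weighs bright genes most. On the mean log2 value of the same markers, oga-1 (9.62 to 9.72) overlapped wild type (9.71 to 9.91), while ogt-1 (9.51 to 9.65) did not. One marker mean lay at or below 6.26. In each mutant 1 of the 18 passed, pqn-8 in oga-1 (-0.49, adjusted p = 0.0346) and dod-6 in ogt-1 (-0.43, adjusted p = 0.0499). Of all tested probe sets, 1.93% passed in oga-1 and 3.91% in ogt-1. The pqn-8 call was lost without oga-1 replicate 1 or 2, ogt-1 replicate 2 or 3, or wild type replicate 1 or 3 (adjusted p up to 0.137). It was also lost with trend and robust options (0.056), with oga-1 and wild type fitted alone (0.0923), and without replicate 2 of both (0.0694). Every omission but that of oga-1 replicate 2 ended the dod-6 call (adjusted p up to 0.200). So did centring on array medians (0.076) and leaving out the dimmest 25% of probe sets (0.0517). The part of these lower marker levels in the fall of lys-4 was not tested. Yolk protein genes, a mark of adult intestine, had summed linear values of 334 to 361 in oga-1, 325 to 350 in ogt-1 and 311 to 366 in wild type over 5 measured genes, of which none passed (limma, with an unadjusted p under 0.05 for 0 of them in any comparison) and 3 had a mean at or below 6.26.

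Among 31 measured regulators of immunity and of lysozyme expression, which include the kinases of the PMK-1 pathway, the insulin pathway down to DAF-16 and the DBL-1 pathway, sma-2 passed against wild type in both mutants and no gene passed between the mutants. That is 1 of 31 in each mutant, close to the share of all tested probe sets that passed (1.93% in oga-1 and 3.91% in ogt-1). The gene sma-2 encodes a Smad protein that carries the signal of DBL-1. Only its brightest probe set is reported here, so whether other sma-2 probe sets fell as well is not shown. The brightest averaged 8.24 in oga-1, 7.996 in ogt-1 and 8.83 in wild type, a fall of 1.51-fold in oga-1 (log2 difference -0.59 ± 0.12, SE, adjusted p = 0.0305) and of 1.78-fold in ogt-1 (-0.83 ± 0.12, adjusted p = 0.00277). The oga-1 call was lost without oga-1 replicate 1 or 3, ogt-1 replicate 2 or any of wild type replicates 1, 2 and 3 (adjusted p up to 0.135). It was also lost with oga-1 and wild type fitted alone (adjusted p = 0.0756). The median difference of the 31 genes was -0.02 in oga-1 and 0.04 in ogt-1 against wild type.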

How the data were processed

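Per the labels' protocols, total RNA was extracted with Trizol and biotin-labelled cRNA from 4 ug of it was hybridised, 1 array per culture; a strain's 3 arrays are labelled as biological replicates. The authors deposited log2 values, 1 per probe set and array, already normalised, as their range and equal array means show. MAS5, RMA and Partek appear in the submitters' processing notes with no role or version. Precision is limited by the number of arrays (median SE of a difference 0.125).

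All 22548 probe sets other than 77 controls were tested together with limma 3.58.1 in R 4.3.3, with 1 mean per strain on 9 arrays (6 residual and 5.65 prior degrees of freedom), without filter or further normalisation. Benjamini-Hochberg adjustment ran over all probe sets of a comparison. The fit was tested on simulated data. Symbols are those of the platform annotation (20766 probe sets with 1 symbol, 887 with several, 895 with none), and all 9 lysozyme symbols were found in the WBcel235 gene table. In the other lists the brightest probe set with 1 symbol stood for a gene.

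Named were all lysozyme probe sets, ogt-1 and oga-1, the 3 most correlated genes for each lysozyme that passed, and up to 3 genes per list and comparison that passed, by smallest p. Members and lists were chosen with earlier results of these data known. Deviations of same-numbered arrays from their strain means correlated at 0.48, 0.43 and 0.36 between oga-1 and wild type. They correlated at -0.10, -0.02 and -0.0023 between ogt-1 and wild type, and at 0.07, 0.09 and 0.11 between the mutants. The numbers were thus taken as pairs for oga-1 with wild type alone, a pairing that comes from the data and not from the labels. The reported fit leaves this pairing out, and it entered only through the block among the alternatives. Alternatives were a fit without each array in turn, replicate number as a block, only 2 strains in the fit, quantile-normalised values, values centred on array medians, eBayes with trend and robust options, no probe sets from the dimmest 25%, and an adjusted p under 0.01. Added after seeing the data were a fit without replicate 2 of both oga-1 and wild type, and the block on oga-1 and wild type alone. Scanner images were not used here.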

Additional observations from a re-analysis of the deposited data

Results flagged for a closer look

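The gene lys-3 was flagged because it passed in the direct test of oga-1 against ogt-1 with limma (adjusted p = 0.0469, higher in 3 of 3 oga-1 arrays). Its difference from wild type was 0.23 in oga-1 and -0.41 in ogt-1, and neither passed. These differ by 0.65 on the log2 scale. The adjusted p of the direct test ran from 0.0229 to 0.266 over the 16 alternatives at the same threshold, and it passed in 4 of them. Among the listed genes for digestion and lysosomes, 3 others passed in the same direct test of oga-1 against ogt-1: asp-14 (-1.67, adjusted p = 8.56e-06, lower in oga-1), cpr-5 (1.03, adjusted p = 0.0167, higher in oga-1) and cpr-1 (1.14, adjusted p = 0.0429, higher in oga-1). These are 3 of 34 measured, where 0.514% of all tested probe sets passed. The list was chosen with earlier results of these data known, so nothing is read from this share.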

How the results depend on the processing

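With 3 arrays per strain, calls near the threshold turned on single arrays. The number of lysozyme probe sets that passed between ogt-1 and wild type was 2 under every alternative. Between oga-1 and wild type it was 1 to 2 with 1 array left out (1 without oga-1 replicate 1 or wild type replicate 2), 1 with the 2 strains alone and 1 at an adjusted p under 0.01. Between oga-1 and ogt-1 it was 0 to 1 with 1 array left out, and 0 with quantile normalisation, median centring, an adjusted p under 0.01, or with replicate 2 of oga-1 and of wild type left out together. With the mutants alone or without wild type replicate 1 that count stayed at 1, but the gene was lys-4 in place of lys-3. The dimmest 25% of probe sets held lys-5, lys-6, lys-10 and the probe set of lys-5 and lys-6, which have no value there. The replicate block changed no call of a lysozyme probe set in any comparison. Of all probe sets, the number that passed between oga-1 and wild type rose to 749 with the replicate block and 1316 with the block on those 2 strains alone, and was 187 with the 2 strains alone, 81 at an adjusted p under 0.01 and 138 with both replicates 2 left out. It was 124 to 624 with 1 array left out, with 124, 262, 262, 274, 209 and 259 without oga-1 replicate 1, oga-1 replicate 2, ogt-1 replicate 2 and wild type replicates 1, 2 and 3. Between ogt-1 and wild type it was 306 at an adjusted p under 0.01 and 332 to 1186 with 1 array left out, with 332, 350, 587 and 545 without ogt-1 replicates 2 and 3 and wild type replicates 2 and 3. Between the mutants it was 176 with the replicate block, where the numbers are not taken as pairs, and 76 to 197 with 1 array left out, with 197, 76 and 77 without oga-1 replicate 3, ogt-1 replicate 2 and ogt-1 replicate 3. No value that passed changed sign. Of values that did not pass, lys-2 between the mutants was 0.078 with both replicates 2 left out, and lys-6 in oga-1 against wild type was -0.0036 with quantile normalisation. With 1 array left out, the values that crossed 0 ranged for lys-1 from -0.55 to 0.0058 in ogt-1 against wild type, from -0.51 to 0.18 in oga-1 against wild type and from -0.21 to 0.48 between the mutants. They ranged for lys-2 from -0.24 to 0.078 between the mutants, and in oga-1 against wild type for lys-6 from -0.037 to 0.075, for lys-7 from -0.25 to 0.19, for lys-8 from -0.044 to 0.22 and for the brightest ilys-5 probe set from -0.86 to 0.0053. Causes were not tested.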

Other observations

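Genes for the digestion of bacteria and for lysosomes were measured for 34 listed genes, with a median log2 difference of -0.05 in oga-1 and 0.01 in ogt-1 against wild type and -0.05 in oga-1 against ogt-1. Most of the 34 did not pass: 1 was higher and 1 lower in oga-1 than in wild type, 1 higher and 2 lower in ogt-1 than in wild type, and 2 higher and 1 lower in oga-1 than in ogt-1. Of all tested probe sets, 1.93%, 3.91% and 0.514% passed in these comparisons, in the same order. Nothing is read from these shares, as the list was chosen with earlier results of these data known. The aspartyl protease gene asp-14 averaged 11.92 in oga-1, 13.58 in ogt-1 and 11.73 in wild type (log2), 3.598-fold higher in ogt-1 than in wild type (adjusted p = 2.72e-06) and 3.17-fold lower in oga-1 than in ogt-1 (adjusted p = 8.56e-06). The cathepsin B-like gene cpr-5 averaged 8.74 in oga-1, 7.72 in ogt-1 and 8.98 in wild type, 2.40-fold lower in ogt-1 than in wild type (adjusted p = 0.00168) and 2.04-fold higher in oga-1 than in ogt-1 (adjusted p = 0.0167). The calls of asp-14 held under every alternative at the same threshold, as did that of cpr-5 in ogt-1 against wild type, while cpr-5 did not pass between the mutants without oga-1 replicate 1, ogt-1 replicate 2 or ogt-1 replicate 3 (adjusted p up to 0.111).

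The lipase gene lipl-5 was lower than in wild type in both mutants, with a log2 difference of -0.57 in oga-1 (adjusted p = 0.0127) and of -0.46 in ogt-1 (adjusted p = 0.0186). The oga-1 call was lost without oga-1 replicate 1 (adjusted p = 0.0687), and the ogt-1 call without ogt-1 replicate 2 or 3 or wild type replicate 3 (adjusted p up to 0.109). The cathepsin B-like genes cpr-4, higher in oga-1 than in wild type (1.48, adjusted p = 0.0448), and cpr-1, higher in oga-1 than in ogt-1 (1.14, adjusted p = 0.0429), passed by narrow margins. The call of cpr-4 was lost without oga-1 replicate 1 or 3, ogt-1 replicate 2 or any of wild type replicates 1, 2 and 3 (adjusted p up to 0.145). That of cpr-1 was lost without any of oga-1 replicates 1, 2 and 3, ogt-1 replicate 2 or 3 or wild type replicate 1 (adjusted p up to 0.238). Trend and robust options also ended the cpr-4 call (0.113), and quantile normalisation the cpr-1 call (0.0544). Leaving out replicate 2 of both oga-1 and wild type ended the calls of cpr-4 (0.123) and cpr-1 (0.0942).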
